A study of Drosophila melanogaster with 2 samples.

Results

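The genes described here are ush and the 5 fly genes that encode GATA factors, srp, pnr, grn, GATAd and GATAe. GATA factors are zinc-finger proteins that bind the letters GATA in DNA and switch on genes of particular tissues. U-shaped, the product of ush, is the fly member of the Friend-of-GATA family: it does not read DNA by itself but binds GATA factors and turns their activity down or changes it. In the embryo, serpent (srp) is known for blood cells, fat body and endoderm, pannier (pnr) for the dorsal ectoderm and the heart, and GATAe for the gut.

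Chromatin was immunoprecipitated with an anti-GFP antibody from whole embryos, 0 to 24 h old, of flies with a transgene that encodes a fusion of CG10366 with eGFP. There was 1 group of 2 biological replicates, 1 library each, and the chromatin had been sheared by sonication to 200 to 800 bp. The fusion construct and the line are not described further in the labels, and no input or untagged library is used here, so no comparison between conditions was possible. Since all cell types of the embryo were mixed, strong binding in few cells and weak binding in many cannot be told apart.

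The 6 genes were taken by name from the Ensembl annotation, out of 13945 protein-coding genes on the 6 main chromosome arms. Each was given every peak whose summit, the highest base of a peak, lay inside the gene or within 5 kb of either end. Peaks come as pairs of lists: a long ranked list of candidates and a short thresholded list. The measure between them is the irreproducible discovery rate (IDR), which is low when a peak ranks alike in separate sets of reads. A candidate passed at an IDR of 0.01 or less, and a peak is called listed here when it also stands in the thresholded list. The series-wide lists held 34018 ranked and 5153 listed peaks, the conservative lists 66223 and 4989, the lists of replicate 1 62792 and 4876, and those of replicate 2 37922 and 3378. Peak signal is the authors' own value for a peak, on a scale that the sources used here do not give, and it is read only within its list. The 6 genes were chosen by the counts and signals of their peaks in these same lists, so those values are a description without a test. Read depth is unknown, since no read counts are used here.

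Most listed peaks near these genes were at ush. Of the 14 listed summits in reach of the 6 genes in the series-wide list, 12 were at ush, 1 was at srp and 1 was at grn, while pnr, GATAd and GATAe had 0. The ush gene is also the longest of the 6. Per 10 kb of gene and flanks, ush had 1.61 listed summits, srp 0.358 and grn 0.227. Of the 92 ranked summits in reach, 46 were at ush and 24 at grn. At ush, 34 summits were in the ranked list alone, and 5 of them passed the IDR threshold without being listed. The strongest of these 5, in the first intron of ush, ranked 4 among all 34018 ranked peaks of the genome.

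Sequences around the summits that carry this pattern follow, to show what the peaks cover. Each is 101 bases of the plus strand of the RefSeq release 6 genome (dm6), centred on the summit, with GATA or its reverse complement TATC in capitals. The first is the strongest ush peak, which is not listed, at 2L:481047-481147. The second is the strongest listed ush peak, at 2L:520792-520892. The window at 2L:493448-493548 is from a listed ush peak with 5 GATA words within 100 bp. After these come the listed srp peak at 3R:15984629-15984729, the listed grn peak at 3R:8171625-8171725, which has no such word in this window, and the peak beside GATAd at 2L:10339335-10339435, listed in replicate 2.
ush first intron: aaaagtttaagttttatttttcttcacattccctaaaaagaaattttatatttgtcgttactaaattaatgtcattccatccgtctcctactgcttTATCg
ush upstream of the inner promoters: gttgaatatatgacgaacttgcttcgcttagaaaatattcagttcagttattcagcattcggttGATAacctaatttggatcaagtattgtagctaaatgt
ush middle intron: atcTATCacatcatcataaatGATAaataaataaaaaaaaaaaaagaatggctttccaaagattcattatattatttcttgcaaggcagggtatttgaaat
srp upstream: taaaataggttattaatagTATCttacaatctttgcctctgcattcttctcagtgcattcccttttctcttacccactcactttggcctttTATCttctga
grn intron: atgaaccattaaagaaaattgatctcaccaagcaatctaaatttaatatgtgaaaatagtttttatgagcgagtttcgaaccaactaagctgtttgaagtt
GATAd downstream: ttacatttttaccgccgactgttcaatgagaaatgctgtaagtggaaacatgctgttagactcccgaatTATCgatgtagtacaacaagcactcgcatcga

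Counts for ush stood well above those of most genes in every pair of lists. The median protein-coding gene had 0 listed summits in reach, the mean was 0.908, and the most for any gene was 24. In the series-wide list 6 genes had more listed summits than the 12 of ush. With the passing but unlisted summits added, ush had 17 and 2 genes had more. In the conservative list ush had 11 listed summits, 7 genes had more and 6 others had as many. In replicate 1 it had 9, 13 genes had more and 8 others had as many. In replicate 2 it had 7, 10 genes had more and 8 others had as many. Only-ranked summits at ush numbered 34 in the series-wide list, 58 in the conservative list, 49 in replicate 1 and 38 in replicate 2.

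**Figure D1:**
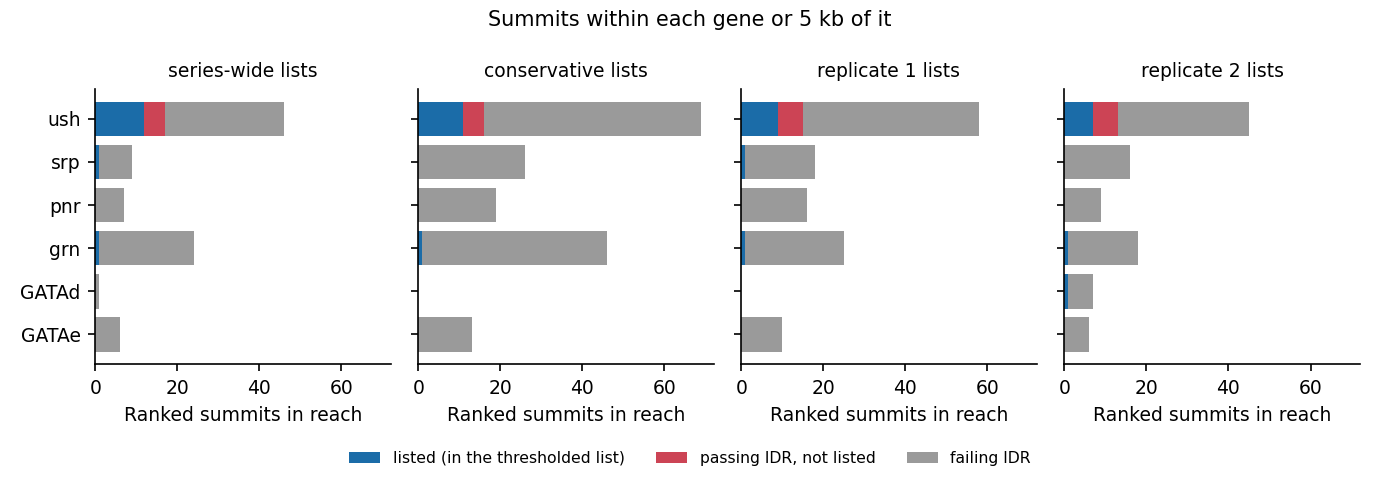
Ranked summits within each gene or 5 kb of it (horizontal axis, count) for the 6 genes, in the series-wide, conservative, replicate 1 and replicate 2 lists. Blue parts are listed, red parts passed the IDR threshold without being listed, and grey parts failed it; red parts appear at ush alone among these 6 genes, with 5, 5, 6 and 6 summits.

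Having a listed summit in reach was common. In the series-wide list 3 of the 6 genes had at least 1, ush, srp and grn, against 49.6% of all protein-coding genes. The conservative list gave 2 of the 6, ush and grn, against 48.9%. Replicate 1 gave 3 of the 6, ush, srp and grn, against 48.1%, and replicate 2 gave 3, ush, grn and GATAd, against 40.4%. The share among the 6 genes is near that of all genes, and the high counts were those of ush. Genes with a span within 1.5-fold of each member had a listed summit more often. Series-wide their share was 67.1% for srp, 67.9% for grn, 65.9% for pnr, 63.2% for GATAe and 57.4% for GATAd. The median of each of these sets was 1.00 listed summit, against 0 at pnr, GATAd and GATAe.

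Among genes as long as ush, more had a listed summit. The ush gene spans 64341 bp of arm 2L (2L:476220-540560, plus strand, FBgn0003963), and 319 protein-coding genes, ush included, have a span within 1.5-fold of that. Their median was 2.00 listed summits, the highest 16, and 3 had more than ush. At least 1 listed summit was in reach of 224 of the 319, or 70.2%. Of the 46 ranked summits at ush, 26.1% were listed, against 15.1% of all ranked peaks. The share at ush was 15.9% in the conservative list, 15.5% in replicate 1 and 15.6% in replicate 2, where 7.53%, 7.77% and 8.91% of all ranked peaks were listed. Over the 319 genes the median of only-ranked summits was 15, and 8 genes had more than the 34 of ush.

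**Figure D2:**
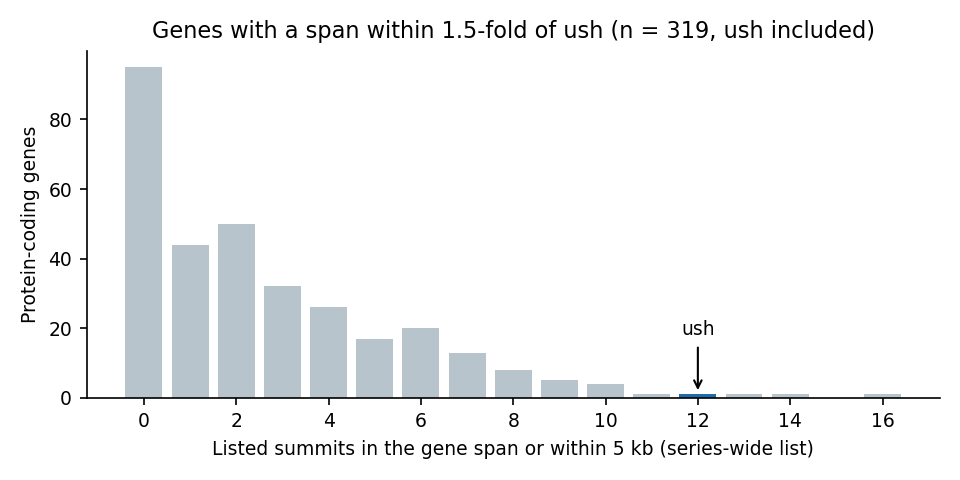
Number of protein-coding genes (vertical axis) by listed summits in reach in the series-wide list (horizontal axis), for the 319 genes whose span is within 1.5-fold of ush. The arrow and the blue bar mark ush at 12, with 3 genes to its right and the largest bar at 0.

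The 12 listed ush summits fell into 2 stretches of the gene. The annotation gives ush 5 transcripts and 4 start sites, at 2L:476220, 490835, 523466 and 523736. The stretch nearer the 5′ end held 5 summits, between 9.70 and 17.5 kb from the first start site, and included the second start site. The other held 7 summits between 34.5 and 47.6 kb, leading up to the pair of start sites at 523466 and 523736. Between them were 17055 bp without a listed summit. Past the last listed summit the remaining 16756 bp of the gene, with its last exons, held 5 failing candidates of signal 4.09 to 64.9. By annotation 9 of the 12 summits were in introns, 3 in exons of a 5′ UTR and 0 in coding sequence.

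**Figure D3:**
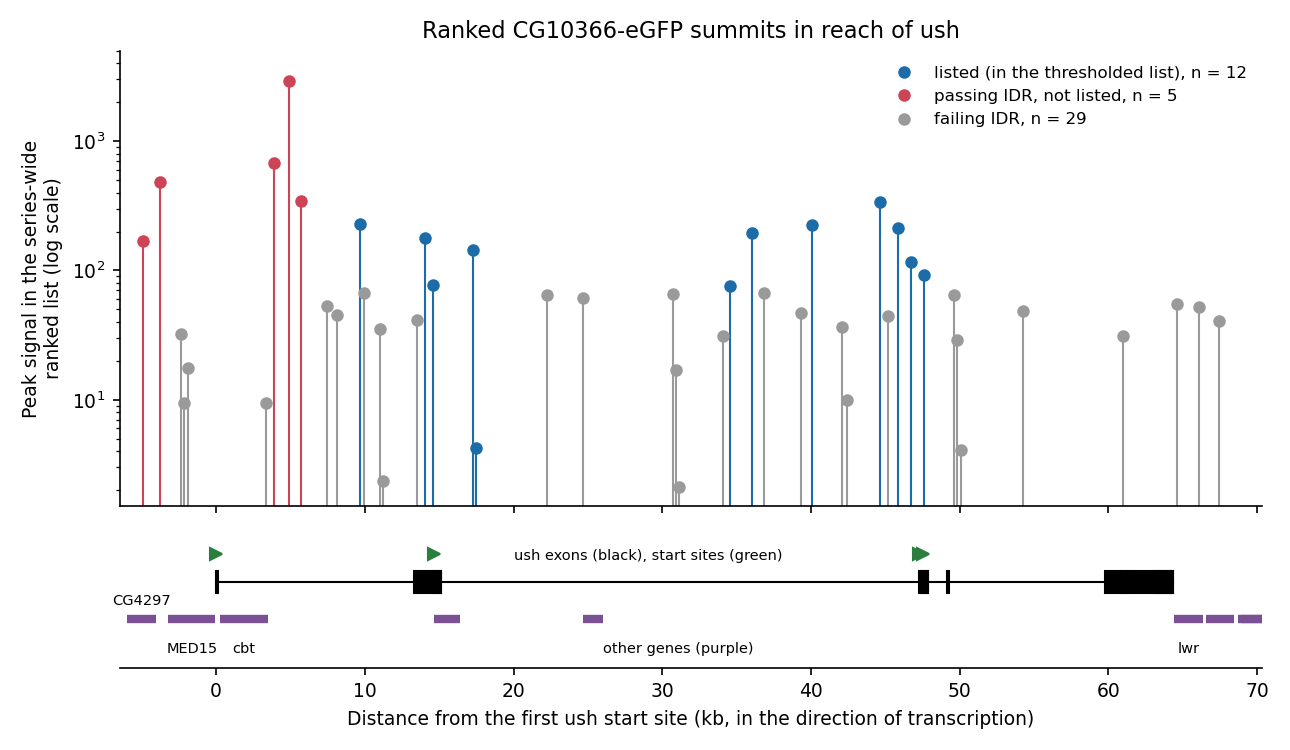
Signal of each series-wide ranked summit (vertical, log scale) by distance from the first ush start site (horizontal, kb), with ush exons in black, its start sites in green and other genes in purple. The 5 red points, passing but not listed, lie between -4.9 and 5.7 kb and reach 2897, and the 12 blue listed points lie in 2 groups further into the gene, up to 337.

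Signal at the listed ush summits lay near the middle of the list. It ranged from 4.25 to 337 with a median of 161, beside a median of 142 and a highest value of 3230 over all 5153 listed peaks. The strongest, at 2L:520842, had 337 in the series-wide list and rank 729 of 5153. Replicate 1 gave this place 235 and replicate 2 gave it 102, each on the scale of its own list, and both listed it. It lies 2624 bp upstream of the start site at 523466. With 2 more listed summits at 522099 (signal 214) and 522965 (signal 116), 1367 and 501 bp upstream of that start site, it forms a row of peaks before the inner promoters. The first of these was listed in both replicates, with 134 in replicate 1 and 90.3 in replicate 2, and the second in replicate 1 alone, with 78.6 against 46.7 in replicate 2.

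Start sites themselves had weak peaks. At the second start site, a summit at 2L:490818, 17 bp upstream, had signal 77.3 and rank 4674 of 5153. The replicates gave it 31.2 and 49.1, and only replicate 2 listed it. At the last start site, a summit at 2L:523804, 68 bp downstream and inside the 5′ UTR exon, had signal 91.5 and rank 4163, with 30.8 in replicate 1 and 54.1 in replicate 2, and neither replicate listed it. These were the 2 of 12 listed summits within 500 bp of a ush start site. Just beyond that distance were the stronger summits at 522965 (501 bp upstream, signal 116) and 490241 (594 bp upstream, signal 177). The first start site had no listed summit within 9.70 kb downstream.

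Elsewhere in the introns the peaks were of middle rank and most were found in both replicates. The summit at 485922 had a series-wide signal of 228 and the pair of replicate values 86.8 and 155, listed in both by an overlap of at least 1 bp. Its replicate 1 peak has the summit at 486057 and overlaps the interval only at its edge. The summit at 486128, named below, met this same replicate 1 peak. The one at 516259 had 225, with 124 in replicate 1 and 95.1 in replicate 2, and the one at 512230 had 194, with 142 and 52.1, all listed. At 490241, in an exon 594 bp upstream of the second start site, the signal was 177, with 106 and 73.9, and both replicates listed it. The summit at 510752 was the weakest of the inner group, at 76.3 series-wide and 41.1 and 37.0 in the replicates, and neither listed it. In addition, replicate 1 listed a summit at 506907 (signal 51.4) and the conservative list held one at 486128 (signal 66.9), both in introns and neither in the series-wide thresholded list.

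A pair of summits 199 bp apart, at 493498 and 493697, shares 1 place. Their intervals overlap, they met the same replicate peaks, and the second has a signal of 4.25, rank 5116 of 5153, beside 145 for the first. The 12 summits thus lie in 11 separate intervals. That place, around 493498, had 78.7 in replicate 1, which listed it, and 56.4 in replicate 2, which did not.

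The count of the 12 that met a peak in the replicates' own lists depended on the overlap asked for. With an overlap of 1 bp or more, 9 met a listed peak of replicate 1, 7 met one of replicate 2, 6 met both and 2 met neither, and all 12 met a ranked peak in both. When 50% of both peaks had to overlap, 6 met a listed peak of replicate 1, 6 met one of replicate 2 and 3 met both. With summits within 100 bp, 7 met each replicate and 5 met both. Over all 5153 listed peaks, at 1 bp, 85.1% met a listed peak of replicate 1, 64.4% met one of replicate 2, 57.9% met both and 434 met neither. The replicates each count once, so these shares show overlap of lists and not a spread.

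The candidates with the highest signal in reach of ush were absent from the thresholded lists. Between the listed summits at 2L:470765 and 485922, a stretch of 15157 bp, the series-wide ranked list held 11 summits and the thresholded list 0. The stretch runs over the 5′ part of CG4297, MED15 (a subunit of the Mediator complex), the first exon of ush, cbt (cabut, a zinc-finger transcription factor that lies inside the first ush intron on the other strand) and the start of that intron. The thresholded lists of replicate 1, replicate 2 and the conservative set also had 0 listed summits here. Of its series-wide candidates 5 passed, and each replicate had 6 passing ones in its own list. The further one was at 480627 in replicate 1, with signal 24.1, and at 480655 in replicate 2, with signal 83.5. Of the 5, those at 471314 and 472464 lie upstream of ush and the other 3 in its first intron.

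At 2L:481097 (interval 2L:480921-481256) the series-wide signal was 2897. Replicate 1 gave 1828, rank 2 of 62792 ranked peaks, and replicate 2 gave 1123, rank 5 of 37922. This place is 4877 bp into ush and 1409 bp upstream of the cbt start site, so it is nearer to cbt than to a ush start site. Nothing in the files ties the peak to either gene.

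The other 4 were weaker, but each was above the series-wide median of 142 for listed peaks. At 480082, 394 bp upstream of cbt, the series-wide signal was 681, with 411 in replicate 1 and 266 in replicate 2. At 472464, between CG4297 and MED15 and 264 bp upstream of the CG4297 start site, it was 480, with 265 and 214 in the replicates. The summit at 481952 had 343, with 201 and 140, and that at 471314, in an intron of CG4297, had 168, with 107 and 61.7. In each replicate's ranked list, 3 of the 5 had more signal than any of the 12 listed ush places.

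**Figure D4:**
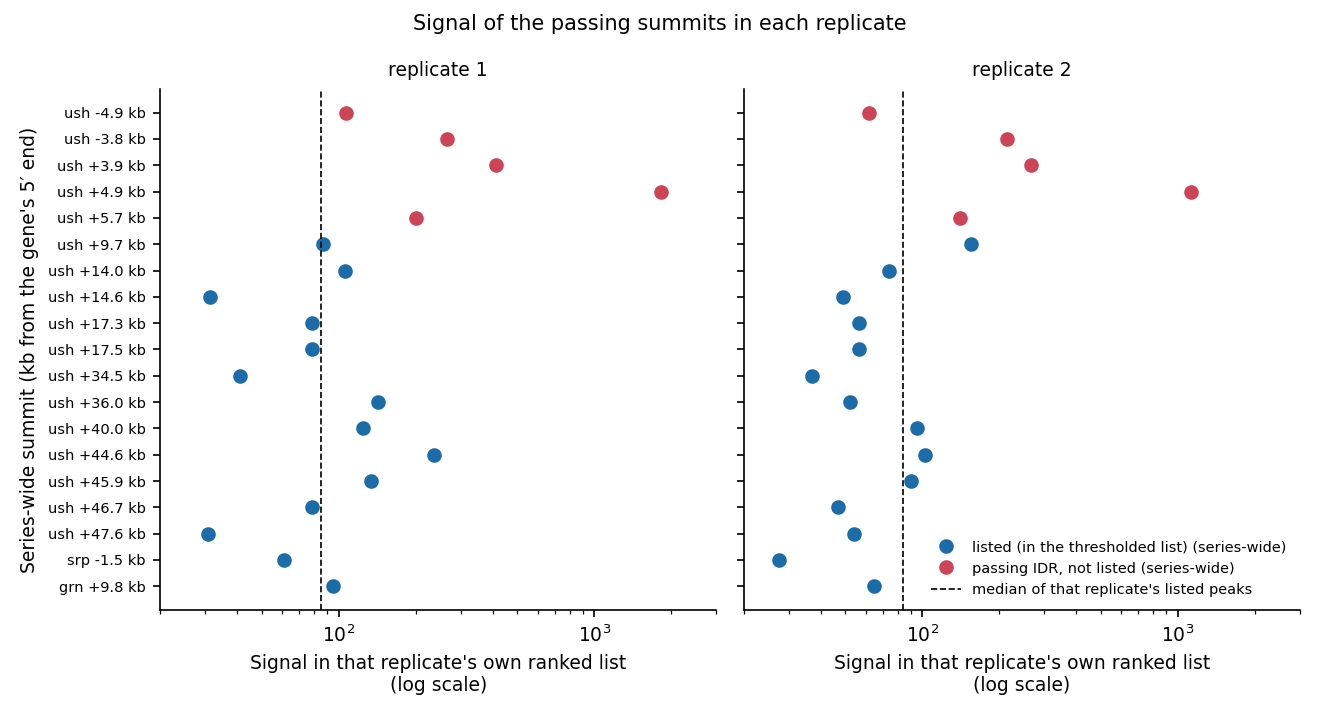
Signal (horizontal, log scale) of each series-wide passing summit at ush, srp and grn (rows, kb from the gene's 5′ end) in the ranked list of replicate 1 (left) and replicate 2 (right), each on its own scale, with the median of that replicate's listed peaks dashed. Red points, passing but not listed, reach 1828 in replicate 1 and 1123 in replicate 2, and the blue listed points reach 235 and 155.

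Peaks of this kind were few over the genome. In the series-wide list 148 of 5301 passing peaks, or 2.79%, were not listed, and the ush peak at 481097 was the strongest of them, the next having 2281. It was also the strongest in replicate 1, of 180 (3.56% of 5056), in replicate 2, of 86 (2.48% of 3464), and in the conservative list, of 125 (2.44% of 5114). At least 1 such summit was in reach of 168 protein-coding genes, with a median of 1.00 and a maximum of 8 over those genes. What removed these peaks from the thresholded lists is not given in the sources used here and was not tested.

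Base composition differed among the ush summits. Of the 12 listed 101-base windows, 4 held 52.5 to 57.4% G and C, among them the 3 in 5′ UTR exons, and 8 held 23.8 to 42.6%. Their median was 33.7% (n = 12), beside 32.7% over the 5140 listed windows on the 6 arms. The 5 passing, unlisted windows had 22.8 to 37.6%. The 29 failing ush candidates had a median of 47.5%, beside 46.5% over all 28416 failing windows.

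Short words were counted within 100 bp of each summit on both strands. GATA was present at 11 of 12 listed ush summits (91.7%), at 3 of the 5 passing, unlisted ones (60.0%) and at 19 of the 29 failing ones (65.5%). Over all listed summits the share was 76.9% and over all failing ones 62.0%, so most windows of this length hold it. The longer word AGATAA, which contains GATA and is a preferred form for many GATA factors, was at 5 of 12 listed ush summits (41.7%), against 13.8% of all listed summits. AGATAA was at 0 of the 5 passing, unlisted ush summits, against 11.1% of all such summits. Of the 29 failing ush summits 2 held it (6.90%, against 8.85%). Among the 12 listed ush summits, TGATAA was at 3 (25%, against 16%) and CGATA at 3 (25%, against 27.5%), and both hold the shorter word too. GAGAG, a word bound by GAGA factor, was at 6 (50%, against 22%). Within 50 bp of the summit GAGAG was at 1 of 12 (8.33%, against 8.79%) and AGATAA at 2 (16.7%, against 7.68%). TATCGATA, a form of the word bound by DREF, was at 0, against 3.35%. CAGGTAG (the Zelda word) and CACGTG were at 0 listed ush summits, against 0.837% and 1.87%, and the CTCF core word AGNNGGCGC, with A or G and then T or G for the unnamed letters, was at 1 (8.33%, against 2.16%), in the window at 490241. Windows of neighbouring summits at 493498 and 493697 overlap, and a match is no sign of which protein was bound.

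Among the GATA factor genes, srp had 1 listed summit. The gene, FBgn0003507, spans 3R:15986152-16004085 on the plus strand, and the summit at 3R:15984679 (interval 15984514-15984843) lies 1473 bp upstream of its first start site. Its series-wide signal was 94.6, rank 4033 of 5153. Replicate 1 gave 61.1 and listed it, while replicate 2 gave 27.5 and did not, and the conservative list lacked it. The 201-base window held 5 GATA words, 2 of them within AGATAA, in 101 central bases of 35.6% G and C. The remaining 8 ranked summits near srp failed, with signals of 18.4 to 50.9.

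The grn gene had 1 listed summit, in all 4 thresholded lists. This gene, which encodes grain, a factor of motor neurons and other tissues, spans 3R:8147368-8181444 on the minus strand (FBgn0001138). The summit at 3R:8171675 (interval 8171510-8171839) is in an intron, 9769 bp from the start site. Its series-wide signal was 160, rank 2235 of 5153, with 94.7 in replicate 1 and 64.6 in replicate 2. The other 23 ranked summits of grn failed, between 3.90 and 61.1. They lie on both sides of the listed intron peak.

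**Figure D5:**
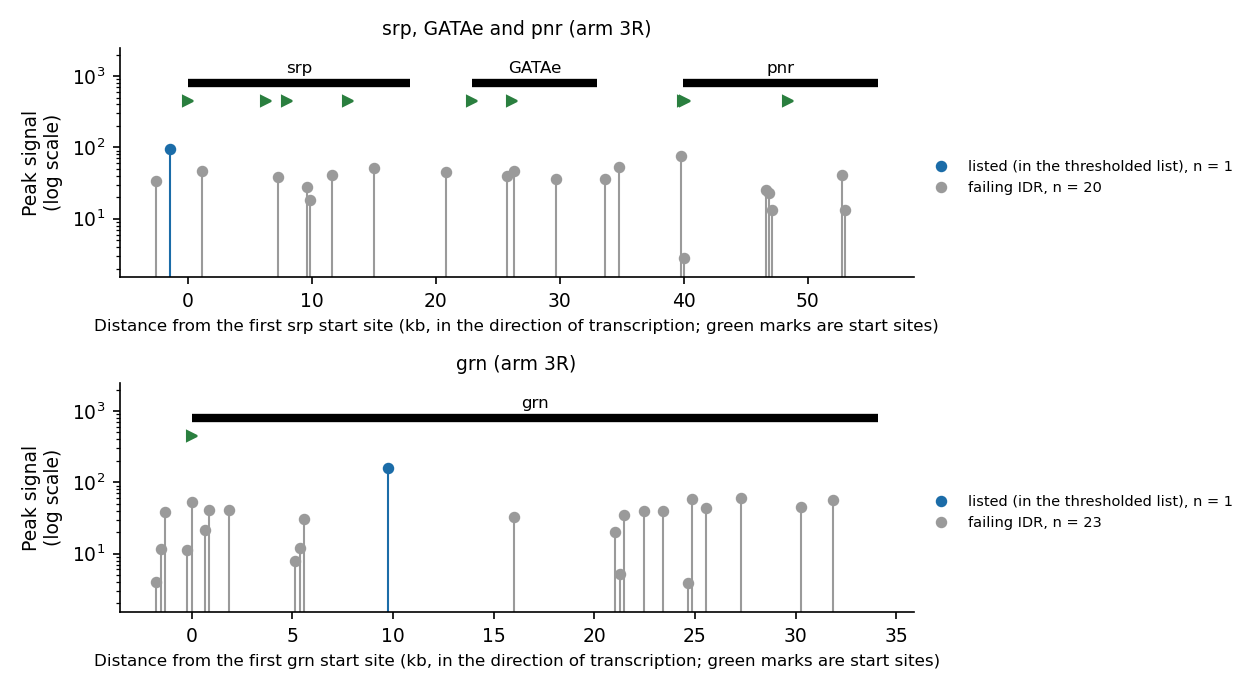
Signal of the series-wide ranked summits (vertical, log scale) over srp, GATAe and pnr (upper panel) and over grn (lower panel) by distance from the first start site of srp or grn (horizontal, kb); genes are black bars and start sites green. Each panel has 1 blue listed point, at 94.6 upstream of srp and at 160 inside grn, among 20 and 23 grey failing points.

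The genes srp, GATAe and pnr are neighbours on arm 3R, in a row of 55645 bp. With 5 kb to either side of each gene, 21 ranked summits were in reach and the srp summit was the 1 listed. At pnr (FBgn0003117, 3R:16026079-16041796) 7 candidates failed, with signals of 2.82 to 76.2. The strongest, at 3R:16025955, was 124 bp upstream of a start site, with a −log10 IDR of 1.03 against the 2 needed. At GATAe (FBgn0038391, 3R:16009105-16019133) 6 candidates failed, between 36.2 and 53.0. In the lists of the replicates the same genes had 16 and 9 candidates at pnr and 10 and 6 at GATAe, none listed.

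GATAd, on arm 2L at 10333734-10339185 (FBgn0032223), had 1 series-wide candidate, which failed with a signal of 77.0 and lies in the 3′ UTR of the neighbouring gene SamDC. Replicate 2 alone listed a summit at 2L:10339385 (interval 10339235-10339534), with signal 48.6 and rank 3194 of 3378. It is 200 bp past the end of GATAd and 72 bp upstream of SamDC, an enzyme gene of polyamine synthesis. The ranked lists of the series and of replicate 1 had 0 peaks that overlap it.

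Near the threshold, the ush summit just inside was the one at 490818, with a −log10 IDR of 2.08 and signal 77.3. Just outside was one at 526048, with 1.51 and 29.0. Its neighbours at 525845 (signal 64.9) and 526340 (signal 4.09) also had a −log10 IDR of 1.51. For srp the values inside and outside were 2.54 and 0.262, and for grn 4.44 and 1.15. At pnr, GATAd and GATAe, with none inside, the nearest outside were 1.03, 0.783 and 0.544.

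Genes known to work with GATA factors and Ush were counted by the same rule. This list and those that follow were chosen with earlier results of these data known, so their shares are a description without a test. Of 8 genes for cofactors and chromatin partners, 7 had a listed summit series-wide (87.5%, against the 49.6% above), and the median was 1.00 listed summit. Mi-2, the remodelling subunit of the NuRD complex, had 3, the strongest at 531 and 6929 bp from its start site. The histone deacetylase gene HDAC1 had 1 at 329, 1859 bp upstream, and the corepressor gene CtBP 1 at 217, 872 bp from its start site. Caf1-55, a histone-binding subunit of several complexes, had 1 at 2162, but this summit lies past the gene, 3957 bp from its start site. The strongest listed summits of the list members MTA1-like and Chi also lie past their genes, 10964 and 4925 bp from the start site. Myb had 0, and in each replicate's own list 5 of the 8 genes had at least 1 (62.5%, against 48.1% in replicate 1 and 40.4% in replicate 2).

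Blood cell genes had 10 of 21 (47.6%, against 49.6%). Among them were zfh1 (513, 1495 bp upstream), a zinc-finger and homeodomain factor, and Pvf3, a ligand of the PDGF and VEGF receptor, with 6 summits of up to 265. PPO1, an enzyme of crystal cells, had 261 at 3087 bp upstream, and the Hml summit of 553 lies past that gene, 16537 bp from its start site. For replicate 1 the count was 12 of 21 (57.1%, against 48.1%) and for replicate 2 it was 7 (33.3%, against 40.4%). For genes of the dorsal ectoderm, amnioserosa and heart it was 10 of 19 series-wide (52.6%, against 49.6%). The strongest were Ance (680, 1091 bp upstream), the heart homeobox gene tin (549, 196 bp upstream), tup (442) and the BMP ligand gene dpp (392). The tup summit lies past that gene, 23465 bp from its start site, and the dpp summit is 5286 bp from a dpp start site. Doc2 and Doc3, both among the 10, have the same strongest listed summit (signal 196, rank 1690), and Doc3 has no other. Replicate 1 had 9 of the 19 (47.4%, against 48.1%) and replicate 2 had 8 (42.1%, against 40.4%).

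Endoderm and gut genes had 3 of 10 (30.0%, against the genome's 49.6%), which were grh with 5 summits of up to 311, betaTub97EF with 3 of up to 176, and the forkhead gene fkh with 1 of 149 at 234 bp upstream. Of these, grh is best known for the epidermis. In replicate 1 the count was 2 of 10, against 48.1% of all genes, and in replicate 2 it was 3, against 40.4%. Lists of 8 to 21 genes give coarse shares.

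Genes with counts most like those of ush were sought among the 318 others of like span, by the sum of the differences in listed and in only-ranked summits. They were sbb (16 listed and 35 only-ranked), Tet (8 and 35), RapGAP1 (9 and 31), heca (8 and 36) and bun (5 and 34), at a sum of 5, 5, 6, 6 and 7. None of these 5 had a passing summit that was not listed, where ush had 5 in reach. Of the 5 at ush, 2 lie upstream of the gene, and each is nearest to a start site of CG4297 or cbt. Passing but unlisted summits were in reach of only 168 of the 13945 protein-coding genes, and 5 genes had more of them than ush.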

How the data were processed

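Peaks of chromatin immunoprecipitation with sequencing were analysed for 1 group of 2 libraries. Per the deposited file descriptions, the authors called peaks on dm6 and ranked them by the irreproducible discovery rate (IDR), over both libraries or within each one. Aligner, peak caller and read depth were not given in the sources used here. The deposited lists hold the authors' peak signal, a score of up to 1000 scaled from the IDR, and −log10 of the global IDR, which stops at 5.

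The thresholded lists were derived by the authors from the ranked lists and 1 further file whose content is not given. In these files every listed peak had a −log10 IDR of at least 2. Summits were counted within gene spans of Ensembl release 115 and 5 kb to either side, in Python 3.11.15 with pandas 2.3.3 and numpy 2.4.6. Arm names and lengths of the RefSeq release 6 sequence fit the peaks, and all 12 annotated start codons of the 6 genes read ATG. Counting was tested on simulated summits. A listed peak counted as met in a replicate at an overlap of 1 bp. The columns that the ranked lists hold for each library were not used.

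The 6 genes and the gene lists were chosen with earlier results of these data known, and no test was made. The text names every summit of the 6 genes that passed, the 4 genes of each list with the strongest listed summit and the 5 genes most like ush, beside a few chosen after their values were seen. Alternatives were another reach, the conservative list, each replicate's list, a stricter IDR, other overlap rules and other windows.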

Additional observations from a re-analysis of the deposited data

How the results depend on the processing

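For ush, the number of listed summits was 12 within the gene span alone and at 2 kb, 14 at 10 kb, 11 by the conservative list and 9 when the IDR limit was 0.001. In the lists of a single replicate it ranged from 7 (without replicate 1) to 9 (without replicate 2). The share of ranked ush summits that were listed was 26.1%, and 15.5 to 15.9% in the other 3 pairs of lists. Only-ranked ush summits numbered 58 in the conservative list, against 34. The strongest listed ush summit had more signal than 85.9% of the listed peaks, and than 80.5% of those left at the stricter limit, where fewer weak peaks remain. The share of genes with a listed summit in reach was 49.6% over all genes and 70.2% over those with a span like that of ush. The share of listed ush windows with GATA was 91.7% at 100 bp, 66.7% at 50 bp and 100% at 200 bp, since longer windows hold more words. Within 50 bp, GAGAG was no more frequent at listed ush summits (8.33%) than over the list (8.79%). Of 111 further values for the other 5 genes, 83 stayed close and 28 moved. These values are counts, shares and percentiles without a direction, so none could reverse. Of those that moved, 6 were counts of listed summits of 0 or 1 and 16 were counts of only-ranked summits, such as 26 at srp (against 8) and 45 at grn (against 23) in the conservative list. The grn summit exceeded 56.6% of the listed peaks, and 28.4% without replicate 1. No paired analysis was possible because there is 1 group and no test. Without read counts, control libraries or more than 2 replicates, a missing peak cannot be told from low depth.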
